A study of Homo sapiens with 2 samples.

Results

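The autophagy genes described here are 39 named genes of the autophagy machinery, VMP1 first among them. They were chosen by symbol: every probe set whose annotation field held one of the names was taken, including probe sets that VMP1 shares with the microRNA gene MIR21. All 39 genes had a probe set, out of 21357 genes named on the array, and 98 probe sets were found. The grouping had been proposed with the values of these same arrays in view, so what follows describes them and supports no test. The study compared K562 cells, an established human erythroleukemia line, 24 hours after nucleofection with 3 µg of either a miR-34a mimic or a control mimic whose sequence matches no human gene. Each group was 1 culture on 1 Affymetrix array, both of the parental line with no genetic change named, so no value has a replicate and no p-value could be computed.

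Autophagy wraps cytoplasm or an organelle in a new double membrane, the autophagosome, and delivers it to the lysosome for breakdown. The ULK kinase complex starts the process, a lipid kinase complex marks the membrane, lipid transfer proteins and scramblases enlarge it, and a conjugation machinery attaches small ATG8 proteins that cargo receptors bind. In maturing red cells the same machinery clears mitochondria, for which BNIP3L is the best known receptor. MicroRNAs lower target mRNAs through pairing of their seed, the bases from position 2 to 8, and ATG9A and ATG4B have been described as targets of miR-34a in other cells.

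Both microRNAs that matter for reading the VMP1 values are shown with the seed in capitals, from RefSeq sequences of GRCh38.p14. The first is the arm of miR-34a usually meant by that name (the labels name no arm), at chr1:9151735-9151756 on the minus strand. The second is the product of MIR21, at chr17:59841273-59841294 on the plus strand, inside the span of VMP1. Of the 4 VMP1 probe sets, 3 carry both names.
miR-34a-5p: uGGCAGUGucuuagcugguugu
miR-21-5p: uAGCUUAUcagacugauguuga
The seeds differ, GGCAGUG in the first and AGCUUAU in the second. Mature microRNAs are not measured by this array.

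Signals are the deposited intensity values in arbitrary units. The log2 ratio is the difference in log2(signal + 14.9), miR-34a minus control, centred on the median of the expressed genes, and it understates the change of dim genes. Fold sizes are read from this ratio, so a dim gene can pass a size in raw signals and not here. Probe sets are called expressed where their mean level over both arrays reached the median of all probe sets. A signal up to 75.4, the highest of 27 bacterial control probe sets, is called within background. Spiked-in RNA, read by 18 probe sets, differed by a mean of 0.014 ± 0.068 on the log2 scale (SD over those probe sets). The 3′ to 5′ signal ratio of GAPDH, which grows as RNA degrades, was 3.07 with the control mimic and 3.53 with miR-34a. That of ACTB was 4.30 and 4.54. The part of RNA quality in the differences was not tested. The labelled identity was checked on 9 erythroid and progenitor markers, of which 8 had an expressed probe set of their own, GATA1, TAL1, KLF1 and NFE2 among them. The ninth, the gamma globin gene HBG1, is read only by 3 probe sets shared with other genes, at signals up to 15162. Markers of other lineages were mixed: CD3E, CD2, CD14, MPO and CDH1 had no expressed probe set, and CD4 and MS4A1 read within background, whereas CD3D, EPCAM, KRT19, COL1A2, VIM, CD79A, LYZ and, barely, CSF1R read above it with the control mimic. CD3D, a T cell receptor component gene, went from 953.6 to 351.9, a log2 ratio of -1.41. The 4 expressed epithelial and stromal markers all lay below 0 with miR-34a, against 50% of all expressed genes, at a median log2 ratio of -0.86. The part of these markers in the values below was not tested.

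VMP1 was lower with miR-34a on all 4 of its probe sets, ATG4B on all 3 and ATG9A on its only one, while most other members were slightly higher. Of the 39 genes 38 were expressed, 27 with a log2 ratio above 0 and 11 below, where 50% of all 12774 expressed genes lay on each side by the centring. The members' median was 0.13 and that of all expressed genes 0.00. On the brightest expressed probe set of each gene, 0 members were higher by 2-fold or more (0.595% of all expressed genes) and 0 were lower by as much (0.548%). In raw signals WIPI1 was 2.13-fold higher, from a control signal within background. At 1.5-fold, 4 members were higher (WIPI1, SQSTM1, BNIP3L and OPTN) and 2 lower (ATG4B and ATG9A), against 3.28% and 3.01% of all expressed genes. The remaining 32 lay within 1.5-fold. The gene-level value of VMP1, -0.38, is among these, because its brightest probe set moved least. Brightest means the highest mean log2 level over both arrays, so a probe set that falls loses rank. With the control mimic alone 224917_at was the brightest, and it moved most, at -1.73. As a mean over its probe sets VMP1 stood at -0.86, past 1.5-fold. Since the choice of members drew on this same contrast, nothing is read from these shares.

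**Figure D1:**
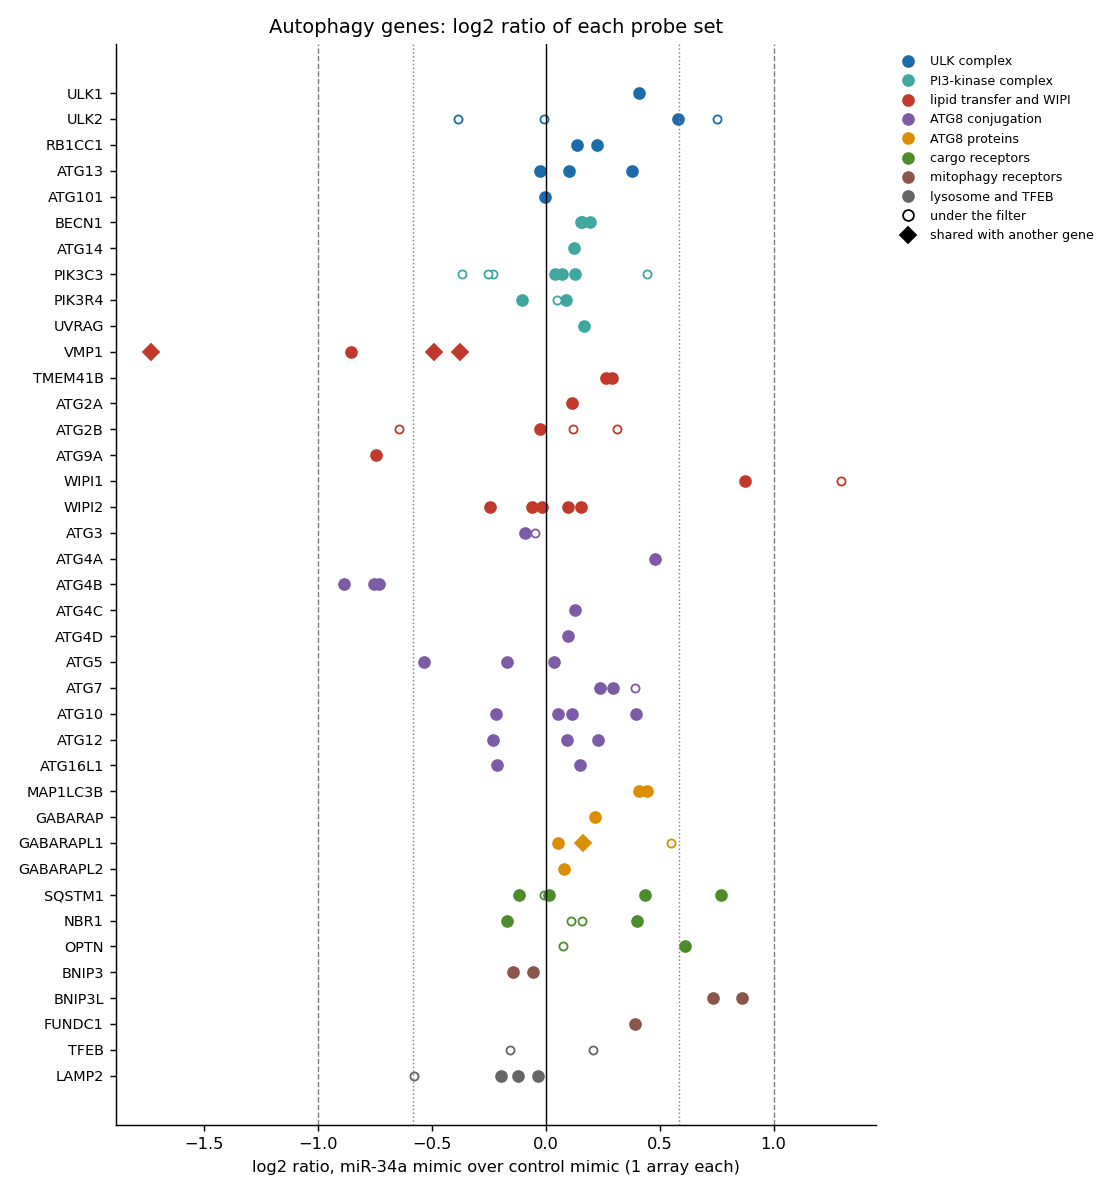
Log2 ratio (x axis) of each probe set of the 39 autophagy genes (rows), coloured by role. Filled points were expressed, open points lay under the filter, and diamonds mark probe sets shared with another gene. Dotted and dashed lines mark 1.5-fold and 2-fold. VMP1 and ATG4B have every point left of 0, and the lowest point, a VMP1 probe set, is at -1.73.

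Counted by probe set, 75 of the 98 were expressed, 47 with a ratio above 0 and 28 below, where 49.4% and 50.6% of all 27307 expressed probe sets lay. At 1.5-fold 5 were higher and 6 lower (3.16% and 3% of all expressed probe sets). At 2-fold 0 were higher and 1 lower (0.531% and 0.505%). Of the 21 members with 2 or more expressed probe sets, 12 had all of them on the same side of 0, against 54% of all genes with 2 or more. The other 9 were ATG13, PIK3R4, WIPI2, ATG5, ATG10, ATG12, ATG16L1, SQSTM1 and NBR1. Where any of these is counted above or below 0, only its brightest probe set is meant. The median SD over the probe sets of a member was 0.090 on the log2 scale, and the highest was 0.61, for VMP1. For the array as a whole, the brightest and second probe set of a gene spread about their shared value by 0.22. That value is a root mean square, which large spreads raise more than they raise a median, so 0.090 and 0.22 are not comparable. These spreads are between probes on the same pair of arrays, not between cultures.

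VMP1 encodes a scramblase of the endoplasmic reticulum that moves phospholipids between membrane leaflets, and it is needed for the young autophagosome to expand. Probe set 224917_at, annotated to VMP1 and MIR21, read 1176.4 with the control mimic and 345.5 with miR-34a, a log2 ratio of -1.73. Only 7 of all 27307 expressed probe sets had a lower ratio. Probe set 220990_s_at, also annotated to both genes, read 881.5 and 679.8, a log2 ratio of -0.38. The third shared one, 231697_s_at, read 213.7 and 148.7, or -0.49. Probe set 1569003_at, annotated to VMP1 alone, went from 99.9 to 48.9, the latter within background, at -0.86. All 4 were thus lower with miR-34a, but their sizes spread widely, with an SD of 0.61. In bulk RNA, fewer cells that carry a transcript and less of it per cell cannot be told apart. Which transcripts of the locus each probe set reads, the VMP1 mRNA or the primary transcript of MIR21, was not tested.

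**Figure D2:**
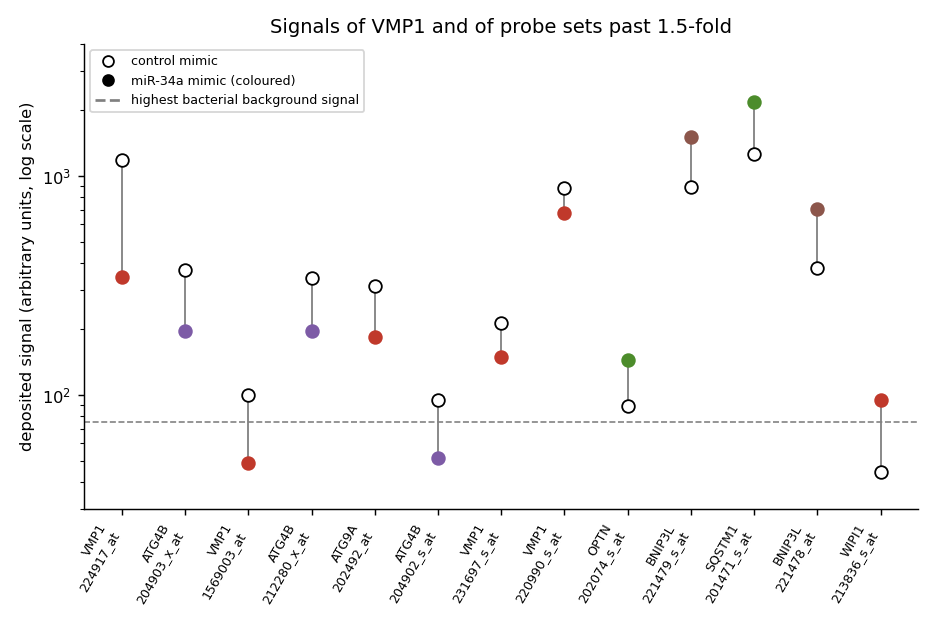
Deposited signals (y axis, log scale, arbitrary units) with the control mimic (open) and with miR-34a (coloured) for the 4 VMP1 probe sets and the other expressed member probe sets past 1.5-fold, ordered by log2 ratio. The dashed line is the highest bacterial background signal, 75.4. The lowest VMP1 probe set went from 1176.4 to 345.5, and the control signal of WIPI1 lies under the line.

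Every expressed probe set of the measured genes around VMP1 on chromosome 17 lay within 1.5-fold, as did 2 of the 4 VMP1 probe sets, the brightest included. Of all 12774 expressed genes, 11971 lay within 1.5-fold on their brightest probe set, so nothing particular to the locus is read. In RefSeq order, DHX40, an RNA helicase gene, had log2 ratios of -0.45 on the brighter of its probe sets, below the -0.38 of the brightest VMP1 probe set, and 0.024 on the second. CLTC, the clathrin heavy chain gene upstream of VMP1, had 0.16. Downstream, TUBD1, a tubulin gene, had -0.064, RPS6KB1, the S6 kinase gene, -0.13, RNFT1 0.48 and HEATR6 0.18. PTRH2, the immediate upstream neighbour, was not analysed here. Of these 6 measured neighbours, 3 lay above 0 and 3 below (50% each of all expressed genes).

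**Figure D3:**
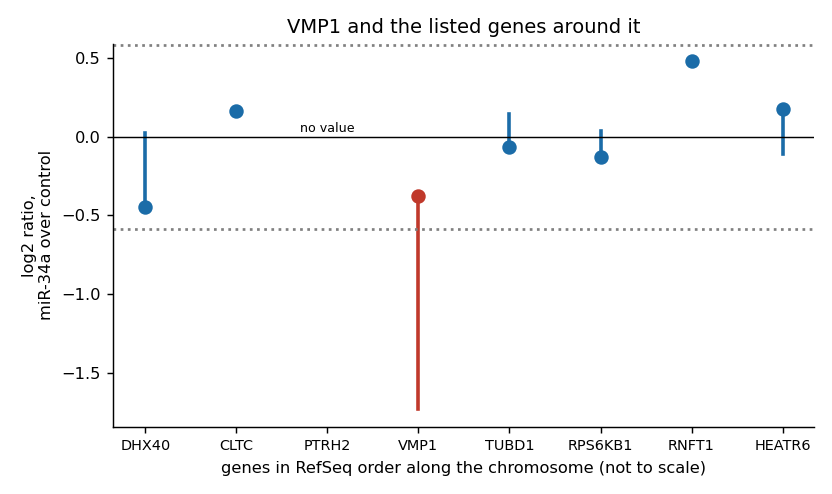
Log2 ratio of VMP1 (red) and the listed genes around it (blue), in RefSeq order and not to scale. Points are the brightest expressed probe set, and lines span the expressed probe sets of a gene. Dotted lines mark 1.5-fold. VMP1 spans -1.73 to -0.38, and every neighbour with a value lies within the dotted lines. Of all 12774 expressed genes, 11971 lay within 1.5-fold on their brightest probe set.

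Among the other genes of membrane growth, ATG9A was lower and WIPI1 higher. ATG9A encodes the transmembrane scramblase whose vesicles seed the new membrane. It read 314.7 and 183.1, a log2 ratio of -0.74 on a single probe set, and 199 expressed genes lay lower. TMEM41B, which encodes a scramblase related to VMP1 in sequence and function, went the other way from VMP1, with 519.4 and 631.5 on its brighter probe set. Its log2 ratios were 0.27 and 0.29. The lipid transfer protein gene ATG2A read 609.0 and 665.6, at 0.12, and ATG2B read 86.1 and 85.1, at -0.025. The members of this group that are known to move lipids between membranes or leaflets therefore lay on both sides of 0.

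WIPI1 and WIPI2 encode related proteins that read the phosphoinositide mark on the growing membrane. WIPI1 had the highest log2 ratio of the members, 0.87, with signals of 44.4 and 94.5, and the first is within background. Its other probe set, under the filter, read 16.97 and 64.01, both within background, at 1.30. WIPI2 read 1210.5 and 1304.8 on the brightest, at 0.098. Its 5 probe sets ran from -0.24 to 0.15. The WIPI1 value thus rests on dim signals.

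The ULK complex had 5 members, all expressed, 4 above 0 and 1 just below on their brightest probe sets (50% each of all expressed genes). None was past 1.5-fold by the log2 ratio, where 3.28% of all expressed genes were higher and 3.01% lower by as much. The median was 0.38. The kinase gene ULK1 read 57.1 and 81.1, a log2 ratio of 0.41, the control signal within background. Its paralog ULK2 read 44.2 and 74.0, both within background, at 0.58, a raw signal ratio of 1.67. The scaffold gene RB1CC1 (FIP200) had 0.14 and 0.22 on its probe sets, at 441.3 and 489.3 on the brighter. ATG13, the adaptor of the complex, stood at 0.38 on the brightest, from 178.3 to 237.7, and -0.024 on the lowest of 3. ATG101, the partner of ATG13, read 429.5 and 431.8, at -0.0016. The highest ratios of this complex belonged to its dim kinase genes, but ATG13 was close to ULK1 on its brightest probe set, above background on both arrays.

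The lipid kinase complex, which makes the phosphoinositide that WIPI proteins read, spanned the narrowest range of ratios among the groups with more than 1 expressed member. BECN1, its beclin 1 subunit, had 0.15 to 0.19 on 3 probe sets and read 728.6 and 819.2 on the brightest. PIK3C3, the catalytic subunit VPS34, read 183.4 and 202.9, at 0.13, and its regulatory partner PIK3R4 read 268.5 and 250.5, at -0.10, with its other expressed probe set at 0.090. ATG14, which directs the complex to autophagy, stood at 0.13, and UVRAG, which directs it to endosomes, at 0.17. The 5 values on the brightest probe sets lay between -0.10 and 0.17.

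In the conjugation machinery the protease gene ATG4B stood apart from the rest of its family. ATG4 proteases trim ATG8 proteins before they are joined to lipid and release them again later. ATG4B read 372.6 and 196.2 on the brightest of 3 probe sets, 340.0 and 196.4 on the next and 94.7 and 51.5 on the dimmest. Its log2 ratios were -0.89, -0.76 and -0.73, with an SD of 0.082. All 3 were lower by a similar amount, and 115 expressed genes lay below the first. All 3 belong to the less specific _s_at and _x_at probe set classes, and without these classes ATG4B had no value. ATG4A, by contrast, read 167.9 and 241.4, at 0.48. ATG4C and ATG4D had 0.13 and 0.098. Within the family, then, 1 gene was at least 1.5-fold lower (3.01% of all expressed genes) and the other 3 had ratios above 0 (50%).

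The enzymes that build the lipid-linked ATG8 lay closer to 0. ATG7, the activating enzyme of both conjugation systems, had 0.30 and 0.24, with 119.9 and 151.7 on the brighter probe set. ATG3, the enzyme that hands ATG8 to lipid, read 1153.6 and 1090.0, at -0.090. ATG10, the enzyme that joins ATG12 to ATG5, read 136.2 and 115.8, at -0.22, but its 4 probe sets ran up to 0.40. ATG5, the acceptor of ATG12, read 817.7 and 728.6 on the brightest, at -0.17, and ran from -0.54 to 0.034. ATG12 ran from -0.23 to 0.23 and ATG16L1, which places the complex on the membrane, from -0.22 to 0.15. For ATG5, ATG10, ATG12 and ATG16L1 the probe sets disagreed in sign, and no direction is read.

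All 4 ATG8 genes lay above 0, by less than 1.5-fold. Of all 12774 expressed genes, 50% lay above 0 and 11971 lay within 1.5-fold. MAP1LC3B, which encodes the LC3B protein used as the standard marker of autophagosomes, read 1032.1 and 1385.9 on one probe set and 606.8 and 836.0 on the other. These are log2 ratios of 0.41 and 0.44. GABARAP read 1303.3 and 1524.1, at 0.21, and GABARAPL2 1381.6 and 1470.6, at 0.080. GABARAPL1 had 0.052 on a probe set of its own and 0.16 on one annotated also to its close copy GABARAPL3, so that value is uncertain. MAP1LC3B had the largest ratio of the 4, and it was alike on both probe sets.

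The cargo receptor genes were all higher on their brightest probe set, where 50% of all expressed genes lay above 0. SQSTM1 encodes p62, which binds ubiquitin-marked cargo and LC3 and is itself consumed by autophagy. Its brightest probe set read 1259.6 and 2173.8, a log2 ratio of 0.77, and 170 expressed genes lay higher. A second, 242568_s_at, read 100.5 and 142.3, at 0.44. The other expressed probe sets of SQSTM1 did not follow, with 224.6 and 207.3 on 244804_at, at -0.12, and 53.2 and 54.4 on 239004_at, at 0.016. A further one was at the table's floor of 1 on both arrays. Without the less specific probe set classes the value of SQSTM1 was -0.11.

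NBR1, a receptor of similar build to p62, read 475.6 and 636.4, at 0.40, with a dim probe set at -0.17. OPTN, optineurin, which links ubiquitin-marked mitochondria and bacteria to LC3, read 88.8 and 144.4, at 0.61, on its only expressed probe set. Its other probe set lay within background at 0.073. Within this group of 3, SQSTM1 and OPTN were past 1.5-fold on their brightest probe sets and NBR1 was not (3.28% of all expressed genes were higher by as much).

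Of the mitophagy receptors, BNIP3L (NIX) was higher and its paralog BNIP3 was not. BNIP3L read 893.0 and 1505.8 on its brighter probe set and 379.6 and 707.0 on the other, log2 ratios of 0.74 and 0.86. Both were past 1.5-fold, far above background, and differed by less than the spread of 0.22. BNIP3, best known for its induction in low oxygen, read 618.8 and 597.6, at -0.058, and -0.14 on its second probe set. FUNDC1, a receptor in the outer mitochondrial membrane, read 578.7 and 768.3, at 0.39. On the same arrays 7 of 8 expressed erythroid and progenitor markers lay above 0, against 50% of all expressed genes. The markers' median was 0.24, against 0.00 over all, and the embryonic globin gene HBZ was highest at 0.84. Any link between these markers and the BNIP3L value was not tested.

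At the lysosome end, LAMP2, a membrane protein of the lysosome that is also the receptor of chaperone-mediated autophagy, read 959.7 and 841.0, at -0.20. Its 3 expressed probe sets ran from -0.20 to -0.033. TFEB, the transcription factor of lysosome and autophagy genes, was the only member with no expressed probe set, and its highest signal was 14.3. No change of TFEB is read at that signal.

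**Figure D4:**
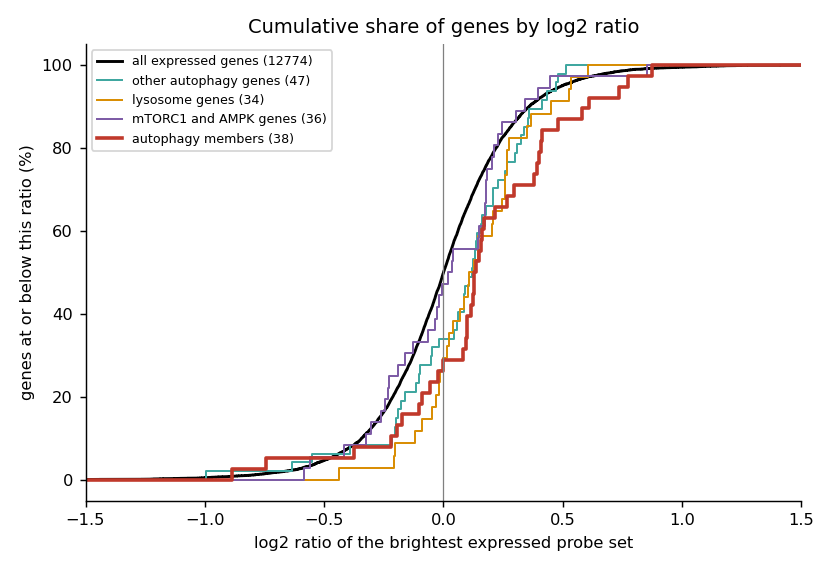
Cumulative share of genes (y axis, %) at or below each log2 ratio (x axis) for the 38 expressed autophagy members (red), 3 other listed gene groups and all 12774 expressed genes (black). The red line crosses 0 at a lower share than the black line, and the members' median is 0.13.

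Other genes of the pathway were listed by function. Of 52 further autophagy genes 47 were expressed, 31 above 0 and 16 below (50% each of all expressed genes). The list's median was 0.12, against 0.00 over all. At 1.5-fold 0 were higher (3.28% of all expressed genes) and 2 lower (3.01%). These were YKT6, a SNARE gene of autophagosome fusion, which read 503.8 and 247.3, a log2 ratio of -0.99, and TBC1D5, a Rab GTPase-activating protein gene, which read 409.6 and 260.0, at -0.64. Each had a probe set above 0, at 0.26 for YKT6 and 0.11 for TBC1D5. The highest were MAP1LC3C at 0.51, within background on both arrays, and BCL2L13, a mitophagy receptor gene, at 0.48 with its lowest probe set at -0.51. SNAP29, a SNARE gene of fusion with the lysosome, was next, at 0.47 from 1822.0 to 2548.6, with all 3 probe sets above 0.

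Of 37 lysosome genes and their regulators 34 were expressed, 24 above 0 and 10 below (50% each of all expressed genes). The list's median was 0.12, against 0.00 over all. At 1.5-fold 1 was higher and 0 lower, against 3.28% and 3.01% of all expressed genes. ARSA, an arylsulfatase gene, had 0.61 within background on both arrays, and the protease gene CTSL read 945.5 and 1385.7, at 0.54. SCARB2 and LAMP1, lysosomal membrane proteins, were lowest at -0.44 and -0.21, and the other expressed probe set of SCARB2 was at 0.11. LAMP1 was lower on all 4 probe sets, as LAMP2 was on its 3. TFE3 and MITF, relatives of TFEB that were expressed here, had 0.13 and 0.024.

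Genes of mTORC1, the nutrient-sensing kinase complex that holds ULK1 in check, and of AMPK, which activates it, centred near 0. Of 42 genes 36 were expressed, 19 above 0 and 17 below (50% each of all expressed genes). The list's median was 0.027, against 0.00 over all. TBC1D7, a subunit of the TSC complex that restrains mTORC1, read 494.5 and 911.0, at 0.85, the only one past 1.5-fold, so that 1 was higher and 0 lower (3.28% and 3.01% of all expressed genes). NPRL3, of a complex that restrains mTORC1 when amino acids are scarce, was next at 0.45. RRAGC, a Rag GTPase gene, and AKT1S1, an inhibitory mTORC1 subunit gene, were lowest at -0.58 and -0.56. RRAGC had a probe set at 0.017, and the miR-34a signal of AKT1S1 was within background.

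Promoter sequence was searched for what the members share, in the 250 bases before each RefSeq start, which 34 members had. The letters CACGTG, the core of the element that TFEB and its relatives bind, stood in 3 of the 34 (8.82%), against 6.49% of all 27305 promoters. AGATAA, the letters of a GATA site, stood in 2 (5.88%, against 9.37%), and TGACNNNGC, the core of the antioxidant response element, in 2 (5.88%, against 11%). Both strands were searched, and no member held more than 1 of these motifs. The windows of 30 bases around the CACGTG matches are shown, with the match in capitals, because these letters are the ones tied to autophagy gene control. They lie at chr14:55411834-55411863, chr3:112561963-112561992 and chr10:131982040-131982069 of GRCh38.p14, all for genes on the minus strand and written along the gene.
ATG14: aaaacaaaatccCACGTGactggctctcct
ATG3: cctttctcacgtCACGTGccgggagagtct
BNIP3: gcgcacgcgccgCACGTGccacacgcaccc
These genes had log2 ratios of 0.13, -0.090 and -0.058, all within 1.5-fold. Of the members past 1.5-fold, none with a promoter in the table held these letters. A match describes the letters in this window and is no evidence of binding.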

How the data were processed

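The authors deposited 1 table of linear intensity values for 54675 probe sets on both arrays, with a floor at 1. Per the labels' protocols, Trizol RNA was labelled with biotin from 15 µg of total RNA. The software, the scaling and the background correction were not given in the sources used here. The columns carried the samples' names, and 0 columns belonged to other samples.

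Values were taken as log2(intensity + 14.9), the pseudocount being the 25th percentile of the deposited intensity values. Ratios were centred by 0.0090, the median over 12774 expressed genes. A gene took its brightest expressed probe set, that with the highest mean log2 level over both arrays. The platform annotation gave 1801 probe sets several symbols. These were used only where the name of a member was among them, and there were 4. Genes were counted at 2-fold and 1.5-fold, and no test between groups was possible. Named genes were all members, those of the other lists past 1.5-fold and the 2 highest and 2 lowest of each. SNAP29, TFE3 and MITF were named in addition, chosen after their values were seen. Members and lists were chosen with earlier results of these data known. The calculation was tested on simulated data. Python 3.11.15, NumPy 2.4.6, pandas 2.3.3, statsmodels 0.14.6 and matplotlib 3.10.9 were used.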

Additional observations from a re-analysis of the deposited data

How the results depend on the processing

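With 1 array per group, no replicate could be left out. No paired analysis was possible because each group held 1 sample and the result comes from no test. There were 11 alternatives planned and 2 added after seeing the data (the median over probe sets, and members above background on both arrays). The count of members at least 1.5-fold higher, 4 (3.28% of all expressed genes), was 2 with 4 times the pseudocount (1.63% of all). It was 2 with the filter at the 75th percentile (2.96%) and 1 without the _s_at, _x_at and _a_at probe set classes (3.39%). At a lower size threshold of 0.32 on the log2 scale it was 11, against 1561 of all 12774 expressed genes. Members at least 2-fold higher numbered 1 with a pseudocount of 1, against 109 of all 12773 expressed genes. Without those classes, members at least 2-fold lower numbered 1, against 50 of all 9608 genes. That setting left 23 members, 14 of them above 0 (50% of all genes). SQSTM1 then stood at -0.11, the only change of sign among members past 1.5-fold. Of those within 1.5-fold, ATG101 changed sign in 7 settings, WIPI2 in 3, and ATG10 and ATG16L1 in 2 each. The VMP1 probe set 1569003_at stood at -0.56 with 4 times the pseudocount. The median of the mTORC1 and AMPK list was 0.079 as a mean over probe sets and 0.097 without those classes. The gene-level value of VMP1 ran from -1.73 to -0.35, below 0 in all 11 settings that gave one. The causes were not tested. Over the whole array, 419 of 12774 genes lay 1.5-fold or more above the control and 384 below. With the pseudocount 4 times as large these were 208 and 219 of 12775. With the filter dropped they were 1029 and 996 of 19775. Signal over background limits WIPI1, ULK1, ULK2 and the dimmest probe sets of VMP1 and ATG4B.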
